A study of Mus musculus with 6 samples.

Results

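The genes described here encode the ligands and receptors of the Wnt, Notch, BMP, TGF-beta, FGF and ephrin pathways. They were taken from a 5050-gene Xenium panel by their symbols (Wnt and Fzd, Notch, Dll and Jag, Bmp, Tgfb, Fgf, and Eph and Efn genes), which gave 97 of the 5050 genes. By role, 58 are ligands, 34 are receptors or co-receptors, and 5 carry a matching symbol but are neither. Xenium images single RNA molecules in a tissue section with targeted probes and assigns them to segmented cells, so each value below is a number of decoded transcripts. The study asked which cells lie beside erythroid cells in blood-forming tissues.

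One condition was E13.5 fetal liver, collected from embryos of wild-type C57BL/6 mice on embryonic day 13.5, fixed in formalin and embedded in paraffin. The other was aged bone marrow, from the femurs of wild-type mice 89 weeks old. The marrow was fixed in paraformaldehyde, embedded in gelatin, cryosectioned, lifted off the bone and then embedded in paraffin. The labels give no transgene, deletion or drug for either tissue, and how many animals the blocks hold is not given in the sources used here. Each condition is 1 section of 5 µm on the same panel, so there is no replicate check and no p-value. Tissue, age and preparation differed together and cannot be told apart.

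The fetal liver section held 5285 cells and 1384795 gene transcripts, with a median of 190 transcripts per cell. The aged marrow held 143810 cells and 13053261 transcripts, with a median of 60. No cell barcode was shared by the sections. Values are given as counts and as CPM, the count per 1000000 gene transcripts of the section. Intervals are exact 95% intervals (Poisson for a level, conditional binomial for a fold) that cover counting error only. A count of 3, used as the floor, equals 2.17 CPM in the liver and 0.230 CPM in the marrow. Defining markers followed the labels: 14 hepatocyte markers summed to 36470 CPM in the liver against 749 in the marrow, and 16 B cell markers to 91.7 against 20975. Cartilage or bone markers summed to 99.7 CPM in the liver and 825 CPM in the marrow. Of 7 with a mean of at least 10 CPM, 5 were at least 2-fold higher in the marrow and 1 in the liver.

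These pathways carry signals over short distances. Wnt ligands bind Frizzled receptors, BMP and TGF-beta ligands assemble paired serine/threonine kinase receptors that signal through SMAD proteins, and FGFs bind receptor tyrosine kinases. Notch ligands (Dll and Jag) and ephrins stay on the cell surface and act on touching cells. In blood-forming tissue the pathways are best known for the signals exchanged between stromal and endothelial cells and the blood cells around them.

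The proximal promoters of 4 genes are shown because these genes had the largest folds among the ephrin receptors and TGF-beta ligands on the liver side and among BMP and FGF ligands on the marrow side. Each is the 250 bases before the transcript start in the RefSeq table (GRCm38.p6), printed 5′ to 3′ on the strand of the gene. GC boxes (GGGCGG) and TATA boxes (TATAAA), both searched on either strand, are in capitals. Ephb3 (ENSMUSG00000005958) lies on the plus strand and its window is chr16:21204545-21204794. Tgfb2 (ENSMUSG00000039239) is on the minus strand, with the window chr1:186705990-186706239. Both windows lie partly or wholly inside the annotated span of their gene, which runs from 21204620 to 21223309 for Ephb3 and from 186622787 to 186709697 for Tgfb2. Bmp6 (ENSMUSG00000039004) and Fgf7 (ENSMUSG00000027208) are on the plus strand, and their windows, chr13:38345466-38345715 and chr2:126034408-126034657, end at the base before the annotated gene.
Ephb3: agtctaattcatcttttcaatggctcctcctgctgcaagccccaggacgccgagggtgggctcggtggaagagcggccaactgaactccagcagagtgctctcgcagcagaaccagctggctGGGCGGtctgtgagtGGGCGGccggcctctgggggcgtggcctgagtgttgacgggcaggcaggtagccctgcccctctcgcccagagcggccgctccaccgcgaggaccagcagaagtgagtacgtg
Tgfb2: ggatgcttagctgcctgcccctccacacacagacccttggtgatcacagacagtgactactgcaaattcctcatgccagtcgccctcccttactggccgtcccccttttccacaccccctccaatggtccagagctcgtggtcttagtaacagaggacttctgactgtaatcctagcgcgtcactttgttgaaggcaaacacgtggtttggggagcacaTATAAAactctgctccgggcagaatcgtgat
Bmp6: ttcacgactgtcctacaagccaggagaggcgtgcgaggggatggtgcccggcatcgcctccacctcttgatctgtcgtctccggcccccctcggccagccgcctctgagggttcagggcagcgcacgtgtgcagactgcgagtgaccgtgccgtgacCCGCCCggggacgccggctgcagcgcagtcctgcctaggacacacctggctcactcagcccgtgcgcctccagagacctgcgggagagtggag
Fgf7: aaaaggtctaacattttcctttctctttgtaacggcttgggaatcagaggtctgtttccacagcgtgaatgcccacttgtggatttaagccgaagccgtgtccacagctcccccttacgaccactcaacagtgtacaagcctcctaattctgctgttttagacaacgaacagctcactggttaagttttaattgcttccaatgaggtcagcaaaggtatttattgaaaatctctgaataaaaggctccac
Ephb3 held 2 GC boxes and Bmp6 held 1. Tgfb2 had a single TATA box that began 31 bases before the start, and Fgf7 had neither motif. The 4 windows held 16 (Ephb3), 8 (Tgfb2), 22 (Bmp6) and 6 (Fgf7) CpG dinucleotides. Of the 74 genes of the group found in the table, 68.9% held a GC box, against 32.9% of all 27025 genes there, and 10.8% held a TATA box, against 13.0%. Their median CpG number was 17, against 6 over all genes. These are matches of letters in a window and not mapped binding sites.

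Most of the 97 genes were sparse. The highest count of any negative control probe, which matches no mouse transcript, was 1 in the liver and 18 in the marrow. In the liver 86 of the 97 genes exceeded it, against 89.0% of all genes on the panel, and in the marrow 95 did, against 97.8%. Unassigned codewords and genomic control probes reached 8 in the liver and 90 in the marrow, and 57 and 45 of the genes stood above those, beside 68.7% and 70% of all genes on the panel. Deprecated codewords, retired from the panel, reached 327 and 2183. In the liver 6 genes stood above them, beside 19.2% of all genes, and in the marrow 6, beside 26.6%. The marrow counts of Ephb2, Ephb3, Epha3, Epha7, Tgfb2, Bmp10, Fzd2, Fgfr4, Wnt4 and Wnt11, from 28 to 82, were among those below 90, as were those of the pathway genes Gdf2, Klb and Frzb named below. On the other side, the 2 liver counts of Fgf7 and of Wnt10a lay below 8. The folds of these genes therefore divide by a level that was not separated from this background.

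**Figure D1:**
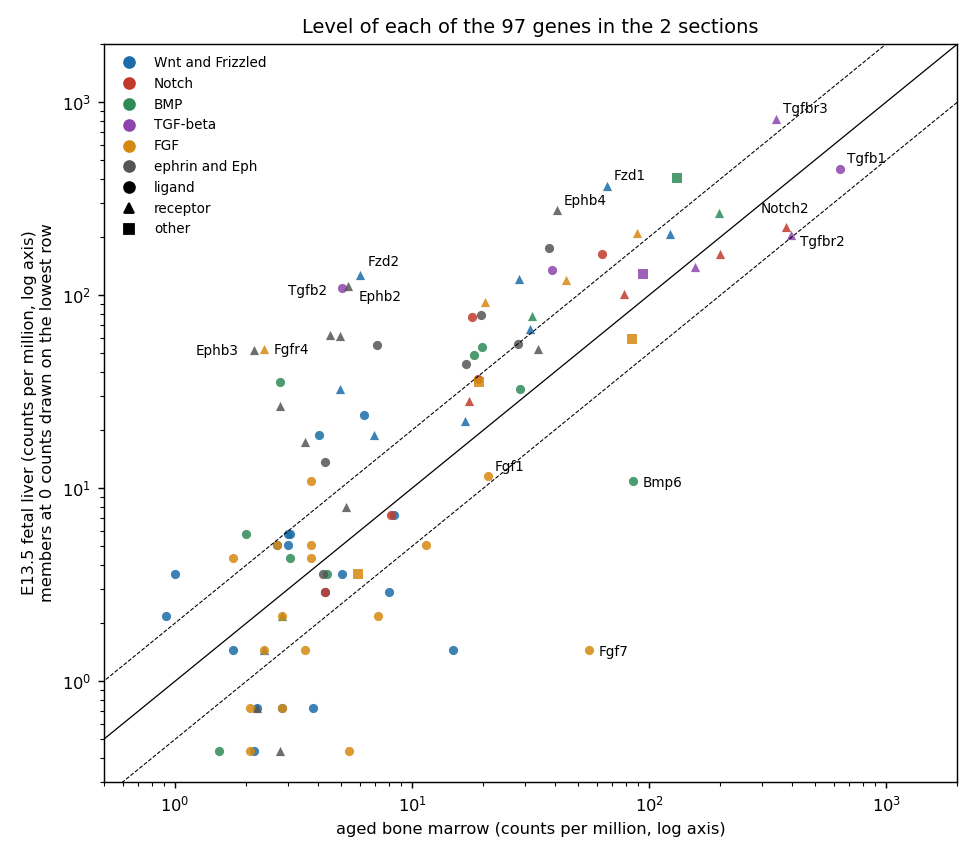
Level of each of the 97 genes in the E13.5 fetal liver (vertical axis) and the aged bone marrow (horizontal axis), both in CPM on log axes. Color gives the family and shape the role, the solid line marks equal levels and the dashed lines 2-fold differences. Many more points lie above the upper dashed line than below the lower one, where Fgf7 and Bmp6 stand apart.

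As a group these genes took a larger share of all transcripts in the fetal liver. They summed to 6522 CPM (6388 to 6658) in the liver and 3975 CPM (3941 to 4010) in the marrow, 1.64-fold higher in the liver. Of the 53 genes with a mean of at least 10 CPM over both sections, 33 were at least 2-fold higher in the liver and 2, Fgf7 and Bmp6, at least 2-fold higher in the marrow. Over all 3493 genes that passed the same filter, 21.2% were called for the liver and 21.4% for the marrow. The 18 remaining genes fell within 2-fold, and the other 44 were too low to be called. The median log2 difference, liver over marrow, was 1.42 for the 53 genes and 0.10 for all genes. Because the filter is a mean over both sections, a gene low in one section could pass only through the other, and this holds for the background share as well. Dividing by cells or by cell area instead of by all transcripts moves every gene alike toward the liver, from a median of 0.10 over all genes to 1.63 and 1.10, so the directions given here are relative to all transcripts of a section. Of the 53 genes, Fgf1, Fgfr1op, Notch1, Notch2, Tgfb1, Tgfbr1 and Tgfbr2, all within 2-fold, changed side under both. When each section was cut into 4 parts of equal cell number, the ranges over the parts did not overlap for 39 of the 53 genes, a share near the 71.9% over all 3493 genes.

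The calls were spread over both roles. For ligands, 13 of 20 were called for the liver and 2 for the marrow, and for receptors 19 of 29 and 0. Of the genes that are neither, 4 were tested and 1, Bmp1, was called for the liver. The family counts that follow include these genes, Bmp1 among the BMP calls. By family, 11 of 13 ephrin and Eph genes and 8 of 10 Wnt and Frizzled genes were called for the liver, as were 5 of 8 BMP, 4 of 8 FGF, 3 of 7 TGF-beta and 2 of 7 Notch genes. Over all genes of the panel 21.2% were called for the liver and 21.4% for the marrow. The Notch share, 28.6%, lay near the first of these. All 4 FGF receptors were called for the liver, and none of the 4 Notch receptors was called for either tissue.

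**Figure D2:**
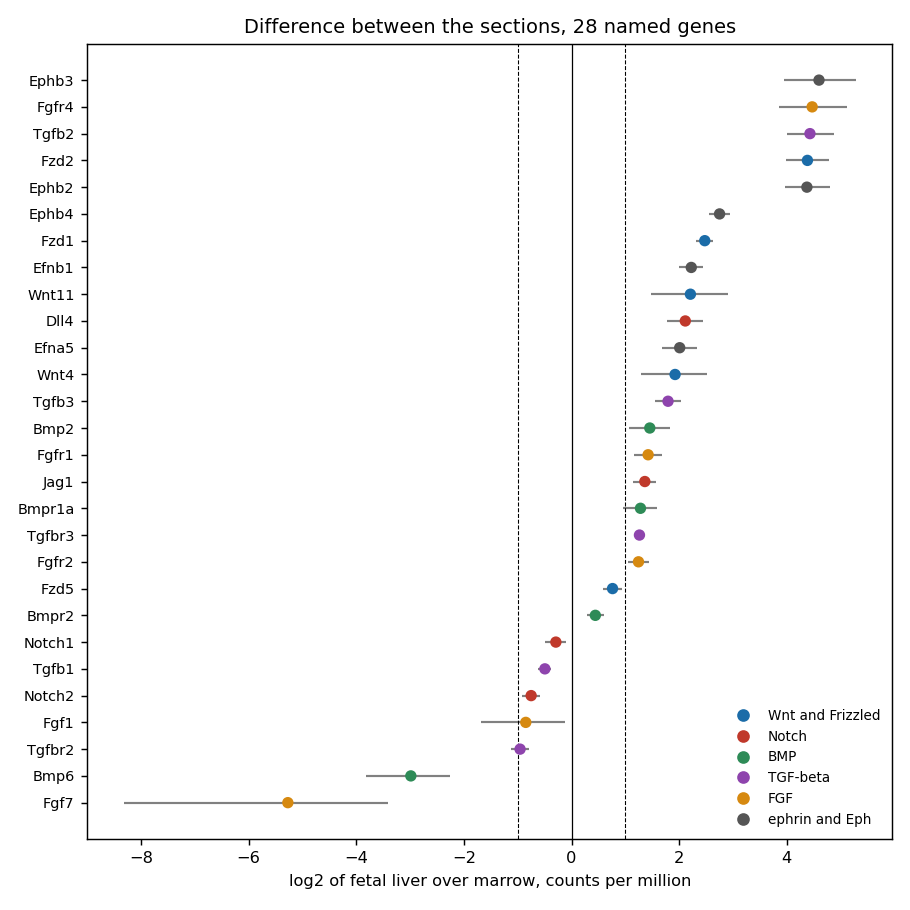
Log2 fold, liver over marrow, of the 28 named genes from CPM, in order of size and colored by family, with exact 95% intervals for counting error. Dashed lines mark 2-fold. Ephb3, Fgfr4, Tgfb2, Fzd2 and Ephb2 lie beyond 20-fold toward the liver. Toward the marrow, Fgf7 lies at 38.7-fold and Bmp6 at 7.93-fold. Fgf1, Notch1, Notch2, Tgfb1 and Tgfbr2, on the marrow side within 2-fold, fall on the liver side when counts are divided by cells or by cell area, which moves all genes alike toward the liver.

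Among ephrins and Eph receptors, the surface ligands and receptor tyrosine kinases of cell contact, the differences were the largest as a family. Their 11 receptors summed to 923 counts (667 CPM) in the liver and 1412 counts (108 CPM) in the marrow, a 6.16-fold difference. Ephb3 was counted 72 times in the liver (52.0 CPM) and 28 times in the marrow (2.15 CPM), 24.2-fold higher in the liver (15.5 to 39.0). Ephb2, a receptor of B-class ephrins, had 154 and 70 counts (111 and 5.36 CPM), 20.7-fold (15.5 to 27.9). Ephb4, known as the venous partner of ephrin-B2, was the most abundant receptor of the family, with 380 counts (274 CPM) in the liver and 532 (40.8 CPM) in the marrow, 6.73-fold (5.89 to 7.70). Its ligand Efnb2 gave 76 and 93 counts (54.9 and 7.13 CPM), 7.70-fold (5.61 to 10.5). Epha7 and Epha3 were 13.7- and 12.3-fold higher in the liver, while Epha2 was within 2-fold. The ligands Efnb1 (176 against 37.7 CPM) and Efna5 (78.7 against 19.5 CPM) were 4.67- and 4.03-fold higher in the liver.

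In the Wnt family the receptors carried nearly all of the liver counts. Frizzled genes summed to 1338 counts in the liver and the 18 Wnt ligands to 127, which put receptors at 91.3% (89.8 to 92.7) of the sum, against 78.7% (77.5 to 79.9) in the marrow. Fzd1 had 511 counts (369 CPM) in the liver and 866 (66.3 CPM) in the marrow, 5.56-fold (4.98 to 6.21). Fzd2 had 175 and 79 counts (126 and 6.05 CPM), 20.9-fold (15.9 to 27.6). Fzd5 was nearer equal, at 208 and 123 CPM or 1.70-fold. Only 2 ligands reached the filter. Wnt4 gave 33 and 82 counts (23.8 and 6.28 CPM), 3.79-fold (2.45 to 5.75), and Wnt11, a ligand mostly tied to signaling without beta-catenin, gave 26 and 53 (18.8 and 4.06 CPM), 4.62-fold (2.78 to 7.53). Wnt10a, named after its values were seen, ran the other way with 2 counts in the liver and 195 in the marrow, 10.3-fold higher in the marrow (2.83 to 86.0), but its mean lay below 10 CPM.

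Every FGF receptor was higher in the liver: Fgfr4, the hepatocyte receptor for endocrine FGFs, had 73 counts in the liver and 31 in the marrow (52.7 and 2.38 CPM), 22.2-fold (14.4 to 34.97). Fgfr1 (119 against 44.4 CPM) and Fgfr2 (210 against 88.7 CPM) were 2.68- and 2.37-fold higher, and Fgfr3 was 4.54-fold higher. Fgf7, a growth factor that mesenchymal cells make for epithelium, had 2 counts in the liver (1.44 CPM) and 729 in the marrow (55.9 CPM), 38.7-fold higher in the marrow (10.7 to 320). Its level ran from 0 to 3.67 CPM over the 4 liver parts and from 50.8 to 65.7 CPM over the marrow parts. Fgf1 was within 2-fold on the marrow side (11.6 and 20.8 CPM), relative to all transcripts. The 16 FGF ligands together gave 56.3 CPM in the liver and 132 CPM in the marrow, and without Fgf7 the other 15 gave 54.9 and 76.4 CPM, 1.39-fold apart.

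All 4 Notch receptors lay within 2-fold. Notch2 had 312 counts in the liver and 4950 in the marrow (225 and 379 CPM), 1.68-fold toward the marrow (1.501 to 1.89). Notch1 had 225 and 2596 (163 and 199 CPM), 1.22-fold toward the marrow (1.07 to 1.41). These sides are relative to all transcripts, and both genes lay on the liver side per cell and per cell area. Of the ligands, Dll4, the Notch ligand of endothelial tips and arteries, had 107 and 233 counts (77.3 and 17.9 CPM), 4.33-fold higher in the liver (3.41 to 5.47). Jag1 had 226 and 829 (163 and 63.5 CPM), 2.57-fold (2.21 to 2.98), but over the 4 liver parts its level was 121, 474, 80.5 and 65.2 CPM. One part thus held most of the Jag1 signal, the liver range overlapped that of the marrow, and without that part the fold was 1.37 (1.10 to 1.70), below the 2-fold line.

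BMP genes were called in both directions, and TGF-beta genes only for the liver. Bmp6, a ligand that raises hepcidin and so governs iron uptake, had 15 counts in the liver and 1121 in the marrow (10.8 and 85.9 CPM), 7.93-fold higher in the marrow (4.79 to 14.2), with parts at 8.94 to 11.6 CPM against 78.1 to 91.7. Bmp2, which acts on the same hepatic pathway, was 2.74-fold higher in the liver (54.2 against 19.8 CPM). Bmp10, a ligand that also circulates in plasma, had 49 and 36 counts, 12.8-fold higher in the liver (8.18 to 20.3). The receptor Bmpr1a was 2.43-fold higher in the liver, and Bmpr2 was within 2-fold at 267 and 197 CPM.

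Tgfb2 had 151 counts in the liver and 66 in the marrow (109 and 5.06 CPM), 21.6-fold (16.1 to 29.3). Tgfb3 was 3.46-fold higher in the liver (134 against 38.8 CPM). Tgfb1, the isoform stored in platelets, had the highest counts of any ligand among the 97 genes, with 626 and 8320 counts (452 and 637 CPM), within 2-fold. The co-receptor Tgfbr3, or betaglycan, had the highest mean CPM of the receptors, at 822 and 343 CPM, and was 2.40-fold higher in the liver (2.25 to 2.56). Tgfbr2 was 1.94-fold toward the marrow (205 and 398 CPM) relative to all transcripts.

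The liver section was uneven for several of these genes. From part 1 to part 4, Ephb2 was at 17.3, 51.4, 101 and 233 CPM and Tgfb2 at 51.8, 95.4, 47.7 and 212 CPM, both highest in the same part. That part also held the largest share of stromal-like cells, 21.1%, against 15.1, 20.7 and 13.6% in the others. Skeletal muscle markers were at 51.8, 84.4, 44.7 and 165 CPM from part 1 to part 4, and mesothelial markers at 463, 518, 820 and 796.5 CPM. Over the liver section Des, also on the stromal list, gave 62.1 of the 91.7 CPM of the skeletal muscle list. The part of these markers in the values above was not tested. Without part 4, 29 genes of 51 tested were called for the liver (20.2% of all genes) and 2 for the marrow (22.1%). Ephb2 then stood at 10.5-fold, Tgfb2 at 12.4-fold, Tgfb3 at 2.11-fold and Wnt11 at 1.80-fold toward the liver, each less by over 1.5 times, and Fzd7 (1.86-fold) and Efnb3 (1.99-fold) fell below 2-fold. Leaving out the other parts in turn, a check added after the data were seen, gave 30 to 37 liver calls of 52 to 54 genes tested, beside 21.4 to 21.6% of all genes. Without the second part, Fzd7 was also below 2-fold (1.94), and Fgf7, with 1 count left, was 62.1-fold higher in the marrow (11.1 to 2457). The 4 marrow parts stayed closer together, with Ephb2 at 2.61 to 7.61 CPM and Tgfb2 at 4.14 to 6.14.

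Receptors exceeded ligands in both sections, except for the ephrin family in the marrow. Of all ligand and receptor counts, receptors made up 70.2% (69.2 to 71.2) in the liver and 64.6% (64.2 to 65.1) in the marrow. Probes differ in efficiency between genes, so these shares are of decoded counts and not of RNA molecules. The FGF family had the widest gap between tissues, 89.4% (86.9 to 91.5) in the liver and 54.1% (52.5 to 55.7) in the marrow. Notch ran the other way, 64.3% (61.4 to 67.1) and 85.7% (84.97 to 86.3). Ephrin and Eph genes stood at 61.0% and 47.9%, BMP genes at 64.0% and 58.2%, and TGF-beta genes at 62.7% and 56.8%. Single genes decided some of these values. Without the most abundant ligand and receptor of the group, the BMP share fell to 36.2% in the liver and 30.3% in the marrow, the FGF share of the marrow fell from 54.1% to 46.8%, and the TGF-beta share of the marrow rose to 91.9% once Tgfb1 and Tgfbr2 were left out. Over all families, the same step put the receptor share of the marrow above that of the liver.

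**Figure D3:**
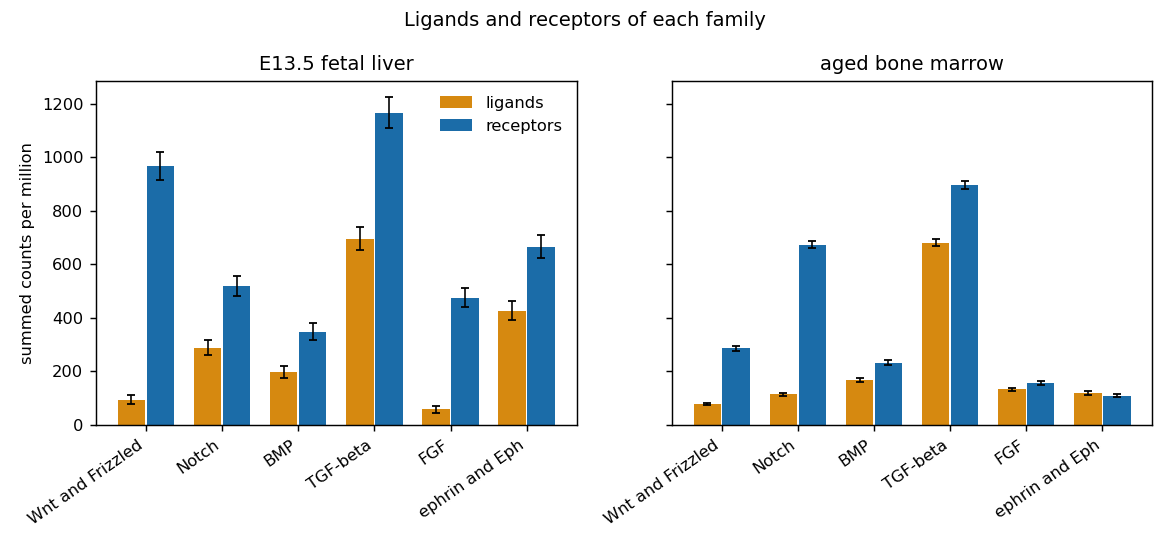
Summed level of ligands and of receptors in each of the 6 families, in CPM, for the fetal liver and the aged marrow, with exact 95% Poisson intervals. FGF ligands are lower in the liver than in the marrow (56.3 against 132 CPM) and FGF receptors higher (474 against 156 CPM), while Notch receptors are at 517 and 674 CPM.

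To place the genes in cells, each section was clustered without the 97 genes and without the other pathway genes, and clusters were called by markers. In the liver this gave 926 stromal-like cells (17.6%), 447 endothelial-like cells (8.51%), and hepatocyte-like, erythroid, macrophage, neutrophil-like and megakaryocyte-like classes. In the marrow 11824 cells were stromal-like (8.40%) and 6008 endothelial-like (4.27%). With clusters made from all genes the stromal-like shares were nearly equal, 9.14% in the liver and 8.80% in the marrow, and the endothelial-like shares were 8.81% and 4.09%. Of the 926 stromal-like cells of the liver, 456 then lay in a cluster left unnamed because its marker lists tied. The larger stromal-like share of the liver thus depended on the clusters and on how they were named. As sums over a section, endothelial markers were also higher in the liver (4249 against 1939 CPM, 10 of 18 markers called for the liver, 1 for the marrow and none at 0), and stromal markers were nearly equal as a sum (7707 against 7047 CPM, 14 of 23 for the liver, 6 for the marrow, none at 0). Mesothelial markers stood at 664 and 46.8 CPM, of which Podxl, also on the erythroid progenitor list, gave 554 and 30.2 CPM, and the other 4 markers 109.8 and 16.6 CPM. In a sum over a section, fewer cells of a class and less RNA per cell cannot be told apart, and the part of cell composition in the folds above was not tested beyond the values within classes below.

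Most of the genes had their highest level in stromal-like or endothelial-like cells. In the liver 39 genes had at least 50 counts in named classes, and 23 of them were highest in the stromal-like class and 9 in the endothelial-like class, 32 together, while 30% of all genes on the panel were highest in those classes. In the marrow 22 and 18 of 63 genes were, 40 together, against 30.5%. The minimum of 50 counts lies below the highest genomic control of the marrow, 90. Genes placed there from fewer counts, such as Fzd2 (76) and Wnt4 (82), were thus not separated from this background. The 97 genes did not help to form the clusters, whereas the 1000 variable genes that did are among the background genes. The highest class stood apart from the next by more than counting error for 22 of the 32 genes in the liver and for 25 of the 40 in the marrow. None of the 39 genes was highest in the erythroid progenitor-like class, which held 27.0% of the liver transcripts and was the highest class of 17.1% of all genes. Of 37 genes measured in both sections, 22 had the same highest class, as did 27.3% of all 2559 genes measured in both. Among the named genes, 20 of 23 in the liver and 18 of 26 in the marrow were highest in those classes, but only 7 of 23 and 2 of 25 were when cells were classed by a gate on marker counts instead of clusters.

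**Figure D4:**
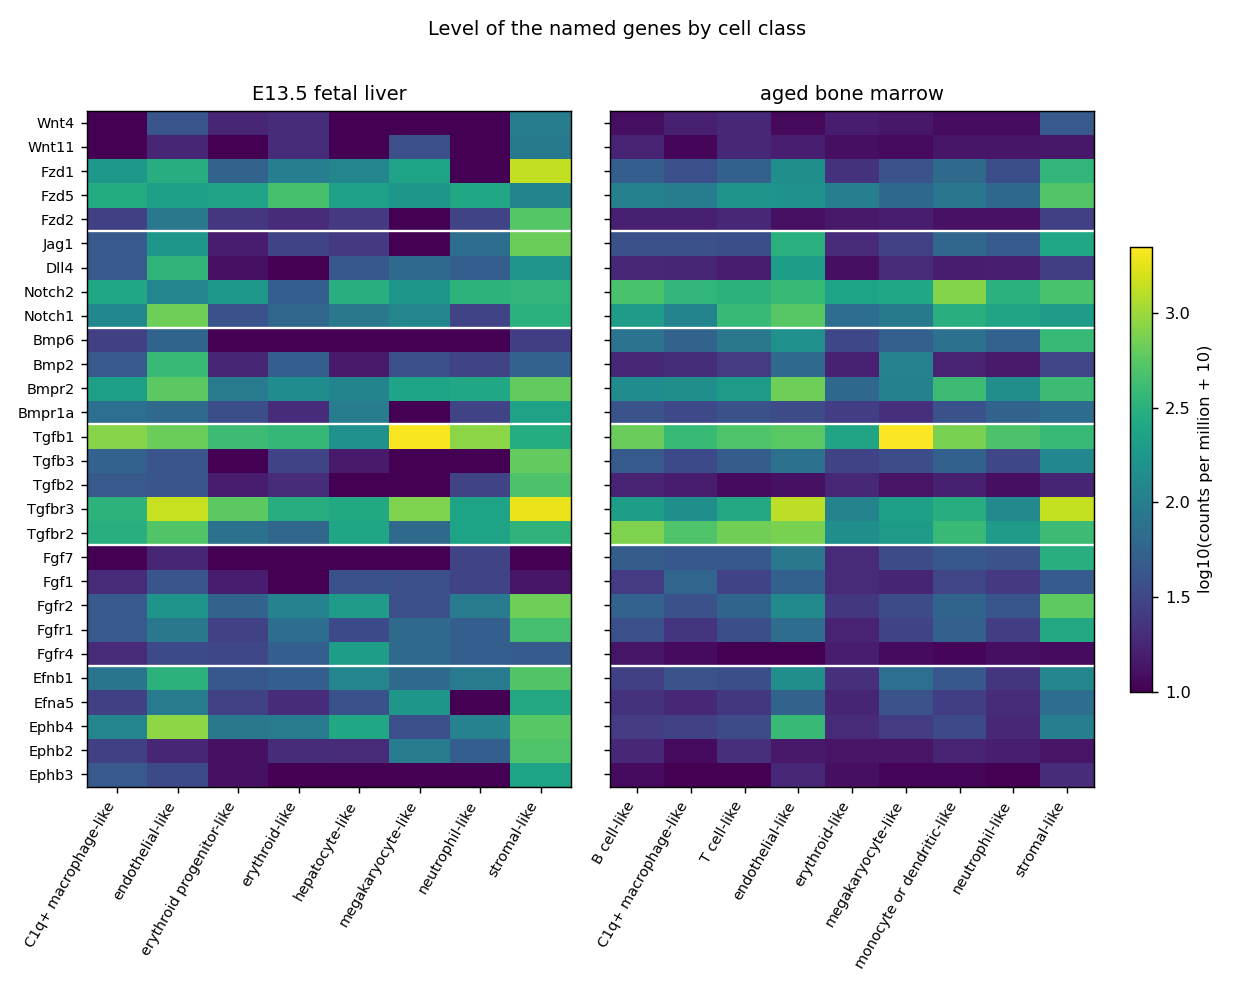
Level of the named genes in each cell class of the fetal liver and of the aged marrow, as log10 of CPM plus 10 (color), with genes grouped by family. The stromal-like and endothelial-like columns hold most of the highest values, and Tgfb1 is highest in megakaryocyte-like cells of both sections.

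Several liver-high receptors and TGF-beta ligands were counted mostly in 1 cluster, which was called stromal-like. In the fetal liver 92.2% of the counts of Ephb2 in named classes lay in stromal-like cells, as did 88.9% for Ephb3, 87.3% for Fzd2, 92.0% for Tgfb2 and 93.5% for Tgfb3. These 926 cells were led by Sulf2, Col9a2, Col1a1, Vcan and Pdgfra. With clusters made from all genes they came apart, with 416 in a stromal-like cluster led by Col14a1, Tnc and Igfbp3. Another 456 lay in an unnamed cluster of 461 cells led by Wt1, Crabp2 and Sulf2. Its leading genes held 1 mesothelial and 1 stromal marker, so these marker lists tied. That unnamed cluster held 88.3% of the Ephb2 counts of clustered cells, 79.2% for Ephb3, 77.1% for Fzd2, 85.4% for Tgfb2 and 88.2% for Tgfb3, and the stromal-like cluster 2.60 to 10.3%. With the gate on marker counts, Ephb2 and Ephb3 were highest in plasma cell-like cells and Fzd2, Tgfb2 and Tgfb3 in skeletal muscle-like cells. Those names rest mainly on single markers in the liver section. Sdc1 gave 289 of the 303 CPM of the plasma cell list. Des, also on the stromal list, gave 62.1 of the 91.7 CPM of the skeletal muscle list. The class of these 5 genes thus differs with the way cells were classed. This was not particular to them. For Jag1, Epha7 and Epha3 the unnamed cluster held 72.6, 73.3 and 72.9% of the liver counts, and the stromal-like cluster 11.1, 11.6 and 11.8%.

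Other genes were placed as follows. Fzd1, Fgfr1, Fgfr2 and Notch3 were highest in the stromal-like class of both tissues, with Fzd1 at 1357 CPM in the liver and 344 in the marrow. In the liver this placement also depended on the clusters. With clusters made from all genes, the unnamed cluster led by Wt1 held 64.6, 67.9, 50.2 and 77.9% of their liver counts, in that order. The stromal-like cluster held 14.3, 8.49, 17.5 and 9.29%. As levels, they stood at 1651, 560, 730 and 545 CPM in the unnamed cluster. In the stromal-like cluster they were at 830, 159, 580 and 148 CPM, so Fgfr2 differed little. In the marrow Fgf7 and Bmp6 had their highest level in the stromal-like class, at 286 and 382 CPM, with 48.5% and 42.05% of their counts in named classes, followed by endothelial-like cells at 76.5 and 141 CPM. Bmp10 was at 128 CPM in stromal-like cells of the liver. With clusters made from all genes, 55.1% of its liver counts lay in the unnamed cluster led by Wt1 and 24.5% in the stromal-like one. Its level in these 2 clusters was nearly equal, at 135 and 136 CPM.

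Dll4, Notch1 and Ephb4 were highest in endothelial-like cells of both tissues. Dll4 was at 336 CPM there in the liver and 199 CPM in the marrow, with the next class, stromal-like cells, at 159 and 17.1 CPM. Some genes changed class. Bmp2 was highest in endothelial-like cells of the liver (375 CPM, with 45.01 in stromal-like cells) but in megakaryocyte-like cells of the marrow (100 CPM, with 53.4 in endothelial-like cells). Fgfr4 was highest in hepatocyte-like cells (192 CPM), though not beyond counting error of the next class. In the marrow Notch2 reached 804 CPM in the monocyte or dendritic-like class, its highest, and in the liver no class led it beyond counting error. Wnt10a was highest in B cell-like cells of the marrow at 39.4 CPM.

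Tgfb1 had its highest level in megakaryocyte-like cells of both tissues, 2125 CPM from 77 counts in the liver and 2167 CPM from 2572 counts in the marrow, a ratio of 1.02 (0.813 to 1.296). They held 13.05% of its counts in named classes of the liver and 31.1% in the marrow. In the next classes it stood at 867 CPM (neutrophil-like, liver) and 744 CPM (monocyte or dendritic-like, marrow). The megakaryocyte marker list was lower in the liver as a whole (2194 against 13419 CPM).

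Within each class that both sections held, more genes were called for the liver than for the marrow. The sections were clustered separately, so a class of 1 name can differ in makeup between them. Among stromal-like cells, 38 of 64 genes were called for the liver (22.0% of all genes) and 5 for the marrow (21.9%). Among endothelial-like cells it was 19 of 53 (15.4%) and 7 (21.3%). For C1q+ macrophage-like cells the numbers were 25 (21.6%) and 3 (14%) of 41, and for erythroid-like cells 17 (22.4%) and 2 (17.0%) of 32. Outside the stromal-like class these counts rest on few transcripts: 2 liver counts could carry a gene past the filter in erythroid-like cells, 3 in C1q+ macrophage-like and endothelial-like cells, and 1 in megakaryocyte-like and neutrophil-like cells. Of the liver calls, 5 of 17, 9 of 25 and 6 of 19 had 3 or fewer liver counts in the first 3 of these classes. In megakaryocyte-like and neutrophil-like cells 29 of 46 and 32 of 51 genes were called for the liver, beside 24.6% and 30.4% of all genes, but 21 of the 29 and 28 of the 32 rested on 1 to 3 liver counts. Both classes had 2 calls for the marrow, beside 12.4% and 11.9%.

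The stromal-like calls depended on the clusters. Between the stromal-like classes of clusters made from all genes, with 480 cells in the liver and 12381 in the marrow, 16 of 54 genes were called for the liver (14.7% of all genes) and 9 for the marrow (21.3%). The 97 genes could help to form those clusters, so these calls are not independent of the classing. In the clusters made without the 97 genes, the class was led by Sulf2, Col9a2 and Col1a1 in the liver. In the marrow it was led by Tnc, Pdgfrb and Gja1, and Ibsp, a cartilage or bone marker, was also among its leading genes. The folds below therefore compare cells of unlike makeup.

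Between these classes the largest liver-side fold among the named genes was that of Ephb2, with 142 counts in the liver (492 CPM) and 4 in the marrow (3.27 CPM), 151-fold (57.5 to 560). Epha7 was 75.3-fold (28.2 to 284), Tgfb2 65.5-fold (33.5 to 146) and Fzd2 29.1-fold (18.5 to 47.8) higher in the liver class. Fgf7 was not counted in the 288841 transcripts of liver stromal-like cells and was counted 351 times in those of the marrow, 27.6-fold higher against a floor of 3 counts. Bmp6 was 22.1-fold higher (9.39 to 68.3) in the marrow class. Between the stromal-like classes of clusters made from all genes, Ephb2 was 9.79-fold (2.03 to 41.3), Tgfb2 14.7-fold (5.77 to 37.3), Fzd2 11.0-fold (5.63 to 21.2) and Epha7 29.4-fold (9.14 to 109.5) higher in the liver, from 4, 11, 18 and 10 liver counts. Bmp6 and Fgf7 had 0 liver counts there. Against a floor of 3 counts they were 10.8-fold (interval from 8.76) and 7.56-fold (from 6.12) higher in the marrow. The Ephb2 fold was thus 9.79 or 151 depending on the clusters. Fgfr2 was nearly equal in the class (661 and 577 CPM, 1.15-fold, 0.972 to 1.35), unlike its 2.37-fold difference between sections, as was Tgfbr3 at 1.37-fold (1.25 to 1.51).

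Fzd5 differed in opposite directions in separate classes. In erythroid-like cells it had 45 counts in the liver (451 CPM) and 143 in the marrow (90.8 CPM), 4.97-fold higher in the liver (3.48 to 6.996). In stromal-like cells it had 30 counts in the liver (104 CPM) and 629 in the marrow (513 CPM), 4.94-fold higher in the marrow (3.43 to 7.39). The section totals, 1.70-fold apart, held both. The erythroid-like class was its highest in the liver, ahead of C1q+ macrophage-like cells at 267 CPM, but that order turned when every cell was thinned to 50 counts. In the liver this class was 1 cluster, with an erythroid progenitor-like class apart from it. In the marrow it pooled 3 clusters, and no erythroid progenitor-like class was named. The 2 erythroid-like classes can thus differ in stage, and the part of stage in the Fzd5 fold was not tested.

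Endothelial-like cells held Bmp2 at 375 CPM in the liver and 53.4 in the marrow, 7.03-fold (4.48 to 11.1), and Ephb4 at 883 and 375 CPM, 2.35-fold (1.87 to 2.95). Dll4 was within 2-fold there (1.69-fold, 1.17 to 2.39), while the whole sections were 4.33-fold apart. Notch2 was 3.48-fold (2.04 to 6.46) and Notch3 3.97-fold (1.495 to 14.9) higher in endothelial-like cells of the marrow.

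**Figure D5:**
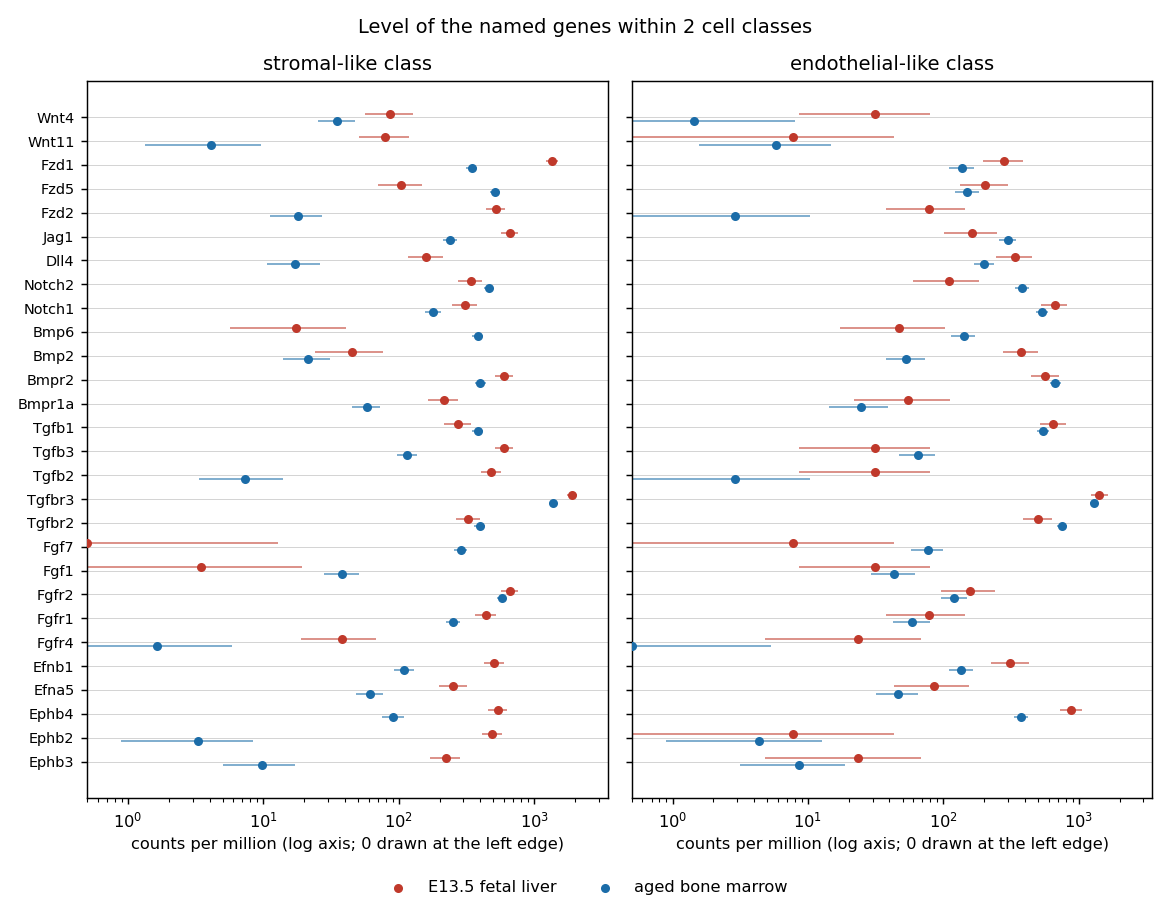
Level of the 28 named genes in stromal-like cells (left) and endothelial-like cells (right) of the fetal liver and the aged marrow, in CPM on a log axis with exact 95% Poisson intervals, 0 drawn at the left edge. In the stromal-like panel Ephb2, Tgfb2 and Fzd2 are far to the right in the liver, and Fgf7, Bmp6 and Fzd5 in the marrow.

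Other genes of the same pathways were less one-sided. Of 138 listed co-receptors, inhibitors, transducers and targets, 104 were on the panel and 73 passed the filter, of which 24 were called for the liver and 8 for the marrow, beside 21.2% and 21.4% of all genes. By pathway, 11 of 25 Wnt genes were called for the liver and 4 for the marrow, 7 and 4 of 24 BMP and TGF-beta genes, 3 and 0 of 13 Notch genes, 2 and 0 of 8 FGF genes, and 1 and 0 of 3 ephrin genes. The median log2 difference was 0.40.

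The BMP ligand Gdf2 (BMP9), made by the liver, had 522 counts in the liver and 26 in the marrow, 189-fold (128 to 293). Gdf10, a relative of BMP3, had 881 and 277 counts (29.98-fold), and the endothelial co-receptor Eng was 2.06-fold higher in the liver. Secreted Wnt inhibitors moved apart: Frzb with 35 and 8 counts (41.2-fold, 18.8 to 103, over a marrow count below the highest negative control probe) and Sfrp1 with 754 and 717 (9.91-fold) were higher in the liver, and Sfrp4 with 23 and 3594 counts was 16.6-fold (11.0 to 26.2) higher in the marrow. Ctnnb1, which encodes beta-catenin, was 2.01-fold higher in the liver at 1755 against 872 CPM.

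Klb, the co-receptor that Fgfr4 needs for endocrine FGFs, had 85 and 36 counts, 22.3-fold higher in the liver (14.9 to 33.8), close to the fold of Fgfr4 itself. The Notch targets Nrarp and Hey1 were 3.71- and 3.72-fold higher in the liver. The FGF-responsive factor Etv5 was 2.03-fold and the exchange factor Arhgef15 2.34-fold higher in the liver. Other genes that the naming rule took for their level lay within 2-fold, namely Spred1 (238 and 198 CPM), Dusp6 (176 and 210), Adam10 (1655 and 1311) and Nck1 (70.8 and 108).

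On the smaller panel of 477 genes used for the 4 other sections, 3 of the same kind of genes were present. Bmp2 was counted at 474 CPM in E14.5 fetal liver, 470 CPM in bone marrow of postnatal day 8, 650 CPM in untreated spleen and 102 CPM in spleen after phenylhydrazine (PHZ), which destroys red cells. Fzd2 stood at 257, 385, 121 and 81.5 CPM in the same order, and Wnt3 at 9.36, 11.3, 22.5 and 9.01. All 3 were lower in the PHZ-treated than in the untreated spleen, beyond counting error, with 1 section each, as were 63.1% of the 477 genes. Wnt3 was low, from 103 and 233 counts where the highest negative control probe had 76 and 77. Panel and run differ from those above, so no level is set against the larger panel.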

How the data were processed

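Xenium sections of wild-type mouse tissue were analyzed, 1 of E13.5 fetal liver and 1 of aged bone marrow on a 5050-gene panel, and 4 others on a 477-gene panel. The authors imaged and segmented the sections and deposited raw transcript counts per gene and cell, with cell outlines. The run description names Xenium Onboard Analysis and the methods name Space Ranger. Counts were summed over all segmented cells and divided by all gene counts (CPM). With 1 section per condition no test was made, and a call is a CPM fold of at least 2 among genes with a mean CPM of at least 10. Exact intervals (95%) came from scipy 1.17.1. The intervals cover counting error only.

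Clusters followed the study's stated settings (at least 5 genes per cell, 3 cells per gene, scale 5000, 10 dimensions, and of its Leiden range of 0.2 to 0.5 the upper end), with 30 neighbors and 1000 variable genes, scikit-learn 1.9.0, igraph 0.11.9 and leidenalg 0.10.2, on 5254 liver and 140707 marrow cells, separately by section, without 202 pathway genes. A cluster was named from at least 3 markers, by a rule settled with the data in hand. Doublets were not called, and transcripts of neighboring cells were not removed. Named genes were, per family, the 2 ligands and 2 receptors of highest mean CPM, the 5 largest folds each way, and the same kind of rule for pathway genes (28 of the 97 genes). Others named here were added for their values. The members and lists were chosen with earlier results of these data known. The code was tested on simulated data. One further gene with a matching symbol, and one pathway gene that the rule names, are not reported here.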

Additional observations from a re-analysis of the deposited data

Results flagged for a closer look

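Codes that match no reported gene carried counts above the negative control probes. The highest deprecated codeword (a code retired from the panel) had 327 counts in the fetal liver and 2183 in the marrow. The highest genomic control had 5 and 90 counts, and the highest unassigned codeword 8 and 53. The highest negative control probe had 1 and 18. Of the 97 genes, 6 exceeded every deprecated codeword in the liver, beside 19.2% of all genes, and 6 did in the marrow, beside 26.6%.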

How the results depend on the processing

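The count of 33 genes called for the liver stayed within 1.5 times under 4 other settings of scale and cells. Without the mean filter it was 39 of 92 (42.4%, beside 18.45% of all genes), with the median log2 difference at 0.82. It was 15 of 25 tested at a mean of at least 50 CPM (17.4% of all genes). Between stromal-like classes of clusters made from all genes it was 16 of 54 (14.7% of all genes). It was 19 of 53 in endothelial-like cells (15.4%) and 17 of 32 in erythroid-like cells (22.4%). The 2 calls for the marrow became 13 of 92 without the filter (26.9% of all genes) and 0 at 50 CPM (17.2%). They were 7 of 53 in endothelial-like cells (21.3% of all genes) and 5 of 64 in stromal-like cells (21.9%). With clusters from all genes, 9 of 54 were called for the marrow in stromal-like cells (21.3%). Counts per cell and per cell area moved the median log2 difference of all genes to 1.63 and 1.10, and that of the 53 genes to 2.95 and 2.42, and gave 48 and 44 liver calls, beside 69.6% and 53.4% of all genes. That shift is the same for every gene, and under it Fgf1, Fgfr1op, Notch1, Notch2, Tgfb1, Tgfbr1 and Tgfbr2, none of them called, changed side.

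The receptor share of all counts became 71.8% (liver) and 75.0% (marrow) without the most abundant ligand and receptor, so that the order of the tissues turned. It was 68.1% and 63.2% when counts were divided by probe sets. Above every blank codeword and genomic control stood 57 genes in the liver and 45 in the marrow, and above deprecated codewords 6 and 6. Classing cells by a gate on marker counts left 8 of 23 named genes in the same class of the liver and 3 of 25 in the marrow, with 7 and 2 in stromal-like or endothelial-like cells. The gate has classes that the clusters lack. Clusters made with all genes kept 13 of 17 in the liver and put 12 of the 17 in stromal-like or endothelial-like cells. Ephb2, Ephb3, Fzd2, Tgfb2, Tgfb3 and Efna5 had too few counts in named classes there, with an unnamed cluster led by Wt1 apart from the stromal-like one. That unnamed cluster was not among the classes compared, so the 13 were kept among named classes only. Of these, Fzd1, Fgfr1, Fgfr2, Jag1 and Tgfbr3, kept as stromal-like, were higher in it, at 1651, 560, 730, 820 and 2046 CPM. In the stromal-like cluster they stood at 830, 159, 580, 284 and 1501 CPM. Leiden 0.2 kept 14 of 25 in the marrow. That setting gave the marrow no endothelial-like, C1q+ macrophage-like or monocyte or dendritic-like class, so genes highest there could not keep theirs. The cause of the other changes was not tested. Bmp1, called for the liver over whole sections (3.07-fold), was 2.23-fold higher in the marrow (1.55 to 3.354) between the stromal-like classes of clusters made from all genes. Fzd7 and Tgfb3 (endothelial-like), Bmp2 (megakaryocyte-like) and Bmpr1a (neutrophil-like), also called for the liver, passed 2-fold toward the marrow in those classes from 1 to 4 liver counts, with intervals that include no difference. No paired analysis was possible because each group is 1 section and no result comes from a test.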
